A study of Sus scrofa with 2 samples.

Results

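Heat shock chaperones were followed across the lineages of pig skin: HSPA8, HSP90AA1, HSPA5, HSPH1, HSPD1, HSPE1, HSPB1 and DNAJB1, 8 genes of the 31908 listed in the count matrices, chosen by symbol. Each symbol had 1 row, and all 8 had UMIs in both libraries. Droplet scRNA-seq was done on single cells of dorsal skin from young, healthy male farm pigs. One library came from fresh cells with no treatment, and the other from cells frozen in FBS with DMSO, stored in liquid nitrogen and thawed, here called the cryopreserved library. Dead cells and doublets were removed by FACS, according to the methods. The exact age of the pigs, and whether both libraries came from 1 animal, were not given in the sources used here. The extraction text attached to both samples mentions freezing, so the fresh library rests on its title and treatment label.

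Chaperones bind unfolded proteins and help them fold, refold or be degraded, and heat, cold, oxidation and tissue dissociation are known inducers of several of them through the transcription factor HSF1. Some are made all the time and serve ordinary folding. HSPA8 is the constitutive HSP70 of the cytosol and HSP90AA1 the inducible HSP90. DNAJB1 is the J-domain partner that hands substrates to HSP70, and HSPH1 is the HSP110 that exchanges its nucleotide. HSPB1 is a small heat shock protein abundant in epidermis, where it accompanies keratinocyte differentiation. HSPD1 and HSPE1 form the chaperonin of the mitochondrial matrix and its lid. HSPA5, also called BiP or GRP78, is the HSP70 of the endoplasmic reticulum (ER) and a target of the unfolded protein response rather than of HSF1.

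In the cells compared here, HSPA5 differed most of the 8 chaperones between the libraries, with 239 CPM (UMIs per 1000000 UMIs, scaled) in fresh cells and 431 CPM after cryopreservation. It was higher in the cryopreserved library in 9 of 9 lineages. HSPH1 went the other way, from 399 to 299 CPM, with the widest gap in CD163/CD209 myeloid-like cells. HSPA8, HSPD1 and HSPB1 lay within 0.1 on the log2 scale over the whole library. From the highest to the lowest lineage, the mean of both libraries spanned 5.49-fold for HSPH1 and 5.56-fold for DNAJB1.

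Promoter sequences are shown first, because HSF1 and the factors of the unfolded protein response are known to act through short elements there. Windows of 250 bases before to 50 after the RefSeq gene start were read from the Sscrofa11.1 assembly on the strand of the gene. The heat shock element searched was GAANNTTCNNGAA, or TTCNNGAANNTTC on the opposite strand, the binding pattern of HSF1. The ER stress element searched was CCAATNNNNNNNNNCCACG, or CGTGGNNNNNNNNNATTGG on the opposite strand. The 3 promoters with a match are given from 250 bases before to 20 after the start, 5′ to 3′, with the matched letters in capitals.
HSPA8: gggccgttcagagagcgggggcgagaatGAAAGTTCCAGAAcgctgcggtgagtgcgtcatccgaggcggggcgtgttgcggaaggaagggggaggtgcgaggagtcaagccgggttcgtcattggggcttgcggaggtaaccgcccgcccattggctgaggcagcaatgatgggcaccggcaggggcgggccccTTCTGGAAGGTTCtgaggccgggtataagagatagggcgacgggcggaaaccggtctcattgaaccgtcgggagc
HSPA5: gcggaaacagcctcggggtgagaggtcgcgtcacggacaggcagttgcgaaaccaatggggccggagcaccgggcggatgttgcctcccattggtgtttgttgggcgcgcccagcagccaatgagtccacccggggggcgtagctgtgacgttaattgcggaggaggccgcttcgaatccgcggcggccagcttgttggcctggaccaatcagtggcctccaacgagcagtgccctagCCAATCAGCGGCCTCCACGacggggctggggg
HSPD1: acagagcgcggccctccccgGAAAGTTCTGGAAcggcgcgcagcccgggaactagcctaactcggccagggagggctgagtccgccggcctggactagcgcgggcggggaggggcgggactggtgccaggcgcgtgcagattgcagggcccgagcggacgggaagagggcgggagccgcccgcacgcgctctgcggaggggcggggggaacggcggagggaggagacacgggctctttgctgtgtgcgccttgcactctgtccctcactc
The HSPA8 stretch lies on the minus strand at chr9:49986741-49987010, before a gene at chr9:49982278-49986760, and its 2 heat shock elements begin 222 and 55 bases before the start. The HSPA5 stretch lies on the minus strand at chr1:265934940-265935209, before a gene at chr1:265930044-265934959, and its ER stress element begins 12 bases before the annotated start and runs over it. The HSPD1 stretch lies on the minus strand at chr15:101373479-101373748, before a gene at chr15:101360355-101373498, and its heat shock element begins 230 bases before the start. HSPE1 lies head to head with HSPD1, at chr15:101374019-101376146 on the plus strand, and the gene starts are 521 bases apart. The nearest base of the HSPD1 heat shock element lies 291 bases before the HSPE1 start, outside the window searched for HSPE1. Of 20667 windows of this length in the RefSeq table, 76 (0.368%) held the heat shock element and 16 (0.0774%) the ER stress element. The windows of HSP90AA1, HSPH1, HSPE1, HSPB1 and DNAJB1 held neither, which says only that these letters were not there. The HSP90AA1 record is not placed on a known chromosome, and its annotated start falls on the letters ATG, as a coding sequence would begin. Its window may therefore not be the promoter.

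The fresh library had 4379 barcodes and 53271738 UMIs (unique molecular identifiers, counted once per captured transcript), and the cryopreserved library 4860 barcodes and 42217632 UMIs. The study's maxima of 4500 genes, 30000 UMIs and 10% mitochondrial UMIs left 2775 fresh cells with a median of 11017 UMIs and 4223 cryopreserved cells with a median of 7945 UMIs. The libraries shared 6 barcodes. Clustering gave 24 clusters, of which 22 were joined into 9 lineages by their markers, each name meaning cells like that type. Keratinocyte-like cells numbered 530 fresh and 1058 cryopreserved, fibroblast-like cells 1197 and 1555, smooth muscle cell (SMC)-like cells 246 and 374, endothelial-like cells 201 and 270 and lymphatic-like cells 107 and 135. There were 152 and 275 CD163/CD209 myeloid-like cells, 108 and 183 of a Langerhans or other dendritic-like kind (called dendritic-like here), 145 and 254 T or NK-like cells and 68 and 82 of the mast-like kind. The dendritic-like name was the weakest, with 4 raised markers and as many of another list, and lymphatic-like cells also tied, at 6 markers. A level is the summed UMIs of a lineage in a library per 1000000, scaled by edgeR's TMM factors. Levels of single clusters are plain CPM, without these factors, and are not on the scale of the lineage levels. Since the 3′ kit reads 1 tag per transcript, levels were not divided by gene length. With 1 library per condition there is no spread between samples and no test was made. Intervals are exact 95% Poisson intervals for levels, or the matching interval for a ratio, and cover counting error only. A ratio was called past the fold if it was at least 1.5-fold in either direction, with 200 UMIs or more in both libraries together.

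HSPA5, which folds secreted and membrane proteins as they enter the ER, was lowest in SMC-like and endothelial-like cells in both libraries. Its level in the fresh library was 303 CPM in keratinocyte-like, 267 in fibroblast-like, 142 in SMC-like, 147 in endothelial-like, 189.7 in lymphatic-like, 283 in CD163/CD209 myeloid-like, 315 in dendritic-like, 238 in T or NK-like and 400.0 in mast-like cells. In the same order, the cryopreserved library had 436, 501, 218, 234, 270.0, 723, 473, 479 and 448 CPM. Every lineage was higher after cryopreservation, and myeloid-like cells went from rank 4 of 9 to rank 1, although over both libraries mast-like cells ranked first with total UMIs, DESeq2 factors, means over cells or TMM within each lineage. The cryopreserved level was 2.56 times the fresh level in myeloid-like cells (interval 2.29 to 2.86). On the log2 scale the difference was 1.35 there, 1.01 in T or NK-like cells (0.81 to 1.21) and 0.91 in fibroblast-like cells (0.85 to 0.97). It was 0.67 in endothelial-like, 0.62 in SMC-like and 0.59 in dendritic-like cells, all past the fold. Keratinocyte-like cells at 0.53 and lymphatic-like cells at 0.51 fell short of the fold with intervals above 0. In mast-like cells, with 114 and 136 UMIs, the difference was 0.16 with an interval of -0.21 to 0.53.

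HSPA5 was thus past the fold in 6 lineages, a count that ran from 4 with DESeq2 factors and 5 with all barcodes to 7 with total UMIs. With DESeq2 factors SMC-like and dendritic-like cells fell just short of the fold, at 0.58 each, and with all barcodes dendritic-like cells were at 0.41 and SMC-like cells at 0.56. Among 914 genes with 200 UMIs or more in each of the 8 lineages other than mast-like cells, 14 (1.53%) were at least 1.5-fold higher in 5 lineages or more. Being higher in all 9 lineages was common, with 67 of 279 genes measured in all of them (24.0%). HSPA5 was also higher in 21 of the 21 named clusters with at least 10 cells in each library. These differences ran from 0.18 to 1.76 on the log2 scale. Endothelial-like, lymphatic-like, dendritic-like and mast-like cells were single clusters, which only repeat the lineage comparison. The share of all genes higher in all 21 was not counted, so this count is no result in itself. The widest gap among the clusters was in dividing keratinocyte-like cells, whose top genes were DIAPH3 and CDC20. There plain CPM went from 113 on 35 UMIs in 23 cells to 383 on 345 UMIs in 71 cells. The MMP3 and SERPINB2 cluster went from 397 to 577 plain CPM.

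**Figure D1:**
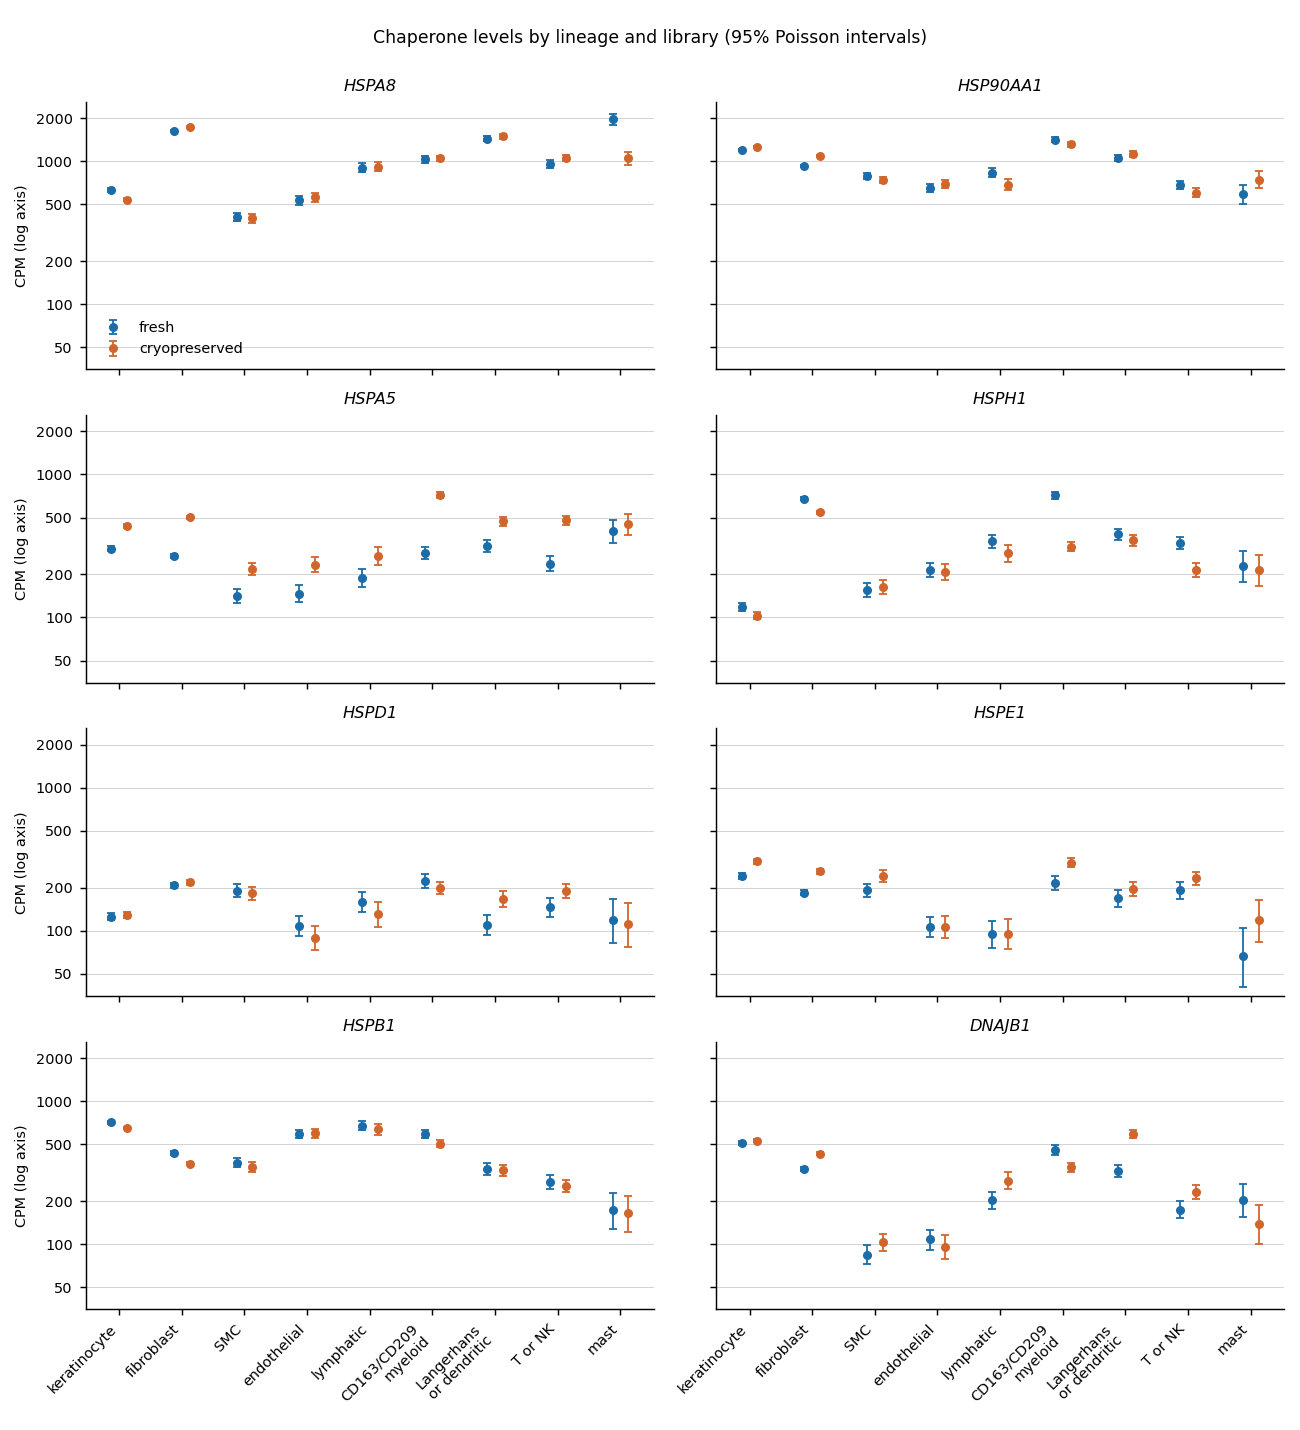
Level of each of the 8 chaperones (vertical axis, CPM on a log axis) in the 9 lineages (horizontal axis), with fresh cells in blue, cryopreserved cells in orange and bars for 95% Poisson intervals. HSPA5 is higher in the cryopreserved library in all 9 lineages, HSPH1 differs most in CD163/CD209 myeloid-like cells (715 against 313 CPM), and HSPB1 keeps nearly the same profile in both libraries.

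The cytosolic HSP70 machine was led by HSPA8, which also uncoats clathrin vesicles and takes part in selective autophagy. HSPA8 was highest in fibroblast-like cells by the mean of both libraries, with 1636 CPM fresh and 1738 cryopreserved. In the fresh library alone mast-like cells were higher, at 1958 CPM. Mast-like cells also ranked first over both libraries with total UMIs, means over cells or TMM within each lineage. SMC-like cells were lowest, with 408 and 399 CPM. Dendritic-like cells had 1440.5 and 1489, myeloid-like cells 1029.8 and 1046, and T or NK-like cells 958 and 1057 CPM. Lymphatic-like cells had 902 and 917, keratinocyte-like cells 630.5 and 538, and endothelial-like cells 531 and 557 CPM. In 8 lineages the libraries differed by 0.23 or less on the log2 scale. Mast-like cells stood apart, with 1958 CPM on 558 fresh UMIs and 1046 on 318 cryopreserved UMIs, a difference of -0.90 (-1.11 to -0.70). Of 457 genes measured in mast-like cells, 15.8% were past the fold. Within fibroblast-like cells, the cluster led by FCN2, MYOC and FGF10 had 1640.0 and 1751 plain CPM of HSPA8. The cluster led by MYL10, WIF1 and RAB26 had 848 and 804. The fibroblast-like level was therefore a mean over unlike clusters. Its TMM factors were 0.838 fresh and 0.820 cryopreserved, so it is not to be set against the cluster values.

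HSPH1 was high in fibroblast-like and myeloid-like cells and lowest in keratinocyte-like cells. Myeloid-like cells were highest in the fresh library, and fibroblast-like cells in the cryopreserved library and by the mean of both. With means over cells, myeloid-like cells ranked first over both libraries. The fresh library had 119 CPM in keratinocyte-like, 678 in fibroblast-like, 155 in SMC-like, 216 in endothelial-like, 341 in lymphatic-like, 715 in myeloid-like, 382 in dendritic-like, 334 in T or NK-like and 228 in mast-like cells. The cryopreserved library had 103, 544, 164, 209, 282, 313, 347, 214 and 214 CPM in the same order. Keratinocyte-like cells were lowest in both libraries, and 8 of 9 lineages were lower after cryopreservation, with intervals below 0 in 5. The difference was -1.19 (-1.33 to -1.05) in myeloid-like cells and -0.64 (-0.86 to -0.42) in T or NK-like cells, both past the fold, and -0.32 (-0.36 to -0.27) in fibroblast-like cells. Of the 279 genes measured in all 9 lineages, 30.8% were lower in 8 or more. HSPH1 was not among these, with 65 UMIs in each library in mast-like cells. With all barcodes reclustered, HSPH1 was lower in 5 of 9 lineages rather than 8. It was lower in 6 with means over cells, in 6 without the 5 top cells and in 7 with no mitochondrial limit. The myeloid-like difference ran from -1.27 to -0.84 over the alternatives tried.

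A few cells held much of the HSPH1. In fresh myeloid-like cells, the 8 cells with most HSPH1 UMIs (5% of cells) held 45.8% of them, against 29.8% in the top 14 cryopreserved cells. In fresh T or NK-like cells, 1 cell with 60 UMIs held 15.1% of the 398 UMIs. Without the 5 cells richest in HSPH1 of each library, the difference was -0.84 in myeloid-like and -0.34 in T or NK-like cells. The latter no longer reached the fold. That left out a larger share of the fresh cells, 152 against 275 myeloid-like and 145 against 254 T or NK-like cells being present. The unequal shares by themselves bring these differences nearer to equal levels. With all barcodes T or NK-like cells were at -0.48, also short of the fold. The T or NK-like difference lay in the cluster led by RHEX and BLK, at 499 and 195 plain CPM. The GNLY and IL17F cluster had 256 and 259.9 and the third, on 33 and 39 UMIs, 288 and 306. Both myeloid-like clusters were lower, at 771 and 337 plain CPM in the CD209 and C1QA cluster. The MARCO and ARG1 cluster had 255 and 96.8, on 36 and 34 UMIs.

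DNAJB1 was highest in keratinocyte-like cells by the mean of both libraries, with 507 CPM fresh and 529.6 cryopreserved. It was lowest in SMC-like cells, with 84.4 and 103, and endothelial-like cells, with 108 and 95.8. Myeloid-like cells had 456 and 343, fibroblast-like cells 333 and 429, and dendritic-like cells 324 and 593 CPM. In the cryopreserved library dendritic-like cells were thus above keratinocyte-like cells. The dendritic-like difference of 0.87 (0.71 to 1.04) was past the fold, while myeloid-like cells went the other way at -0.41 (-0.56 to -0.26). These values rest on few cells, since the top 5% of dendritic-like cells held 53.9% of the fresh and 55.0% of the cryopreserved DNAJB1 UMIs, and 1 fresh cell alone held 19.4%. Without the 5 richest cells of each library the dendritic-like difference was 1.08. That left out 5 of 108 fresh and 5 of 183 cryopreserved cells, a larger share of the fresh library. The unequal shares by themselves raise the difference, so the value of 1.08 does not show how far it rests on few cells. Over the alternatives tried, the myeloid-like difference ran from -0.49 to -0.07. Lymphatic-like cells had 202 and 278 and T or NK-like cells 174 and 231 CPM. Mast-like levels of 204 and 138 CPM rested on 58 and 42 UMIs.

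HSP90AA1, the stress-induced partner of kinases and steroid receptors, varied 2.12-fold from the highest to the lowest lineage, close to the 2.17-fold of HSPD1. It was highest in myeloid-like cells (1413 and 1309 CPM, fresh and cryopreserved) and keratinocyte-like cells (1195 and 1263). Dendritic-like cells had 1053 and 1126, fibroblast-like cells 929.8 and 1094, and SMC-like cells 785 and 742 CPM. Lymphatic-like cells had 831 and 685, endothelial-like cells 645 and 691, mast-like cells 586 and 744, and T or NK-like cells 683 and 604 CPM. These last lineages overlapped their neighbours in the order. No lineage was past the fold for this gene, and the differences ran from -0.28 in lymphatic-like to 0.34 in mast-like cells. Keratinocyte-like clusters differed more: 1752 and 1785 plain CPM in the MMP3 and SERPINB2 cluster and 639 and 561 in the KRT1 and KRT10 cluster. In dividing keratinocyte-like cells HSP90AA1 was 747 plain CPM in 23 fresh and 1701 in 71 cryopreserved cells.

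HSPB1, the small heat shock protein, had the profile most alike in the libraries, with a Pearson r of 0.99 between them over the 9 lineages. Keratinocyte-like cells, which ranked second to lymphatic-like cells under 5 of 12 alternatives, had 712 CPM fresh and 648 cryopreserved, lymphatic-like cells 674 and 637, and endothelial-like cells 587 and 595. Myeloid-like cells followed at 591 and 504, fibroblast-like cells at 434 and 365, SMC-like cells at 371 and 346, dendritic-like cells at 335 and 327, and T or NK-like cells at 271 and 255 CPM. Mast-like cells were lowest, with 172 and 165 CPM on 49 and 50 UMIs. HSPB1 was lower after cryopreservation in 8 of 9 lineages, by at most 0.25 on the log2 scale and with intervals below 0 in 3. Of genes with 200 UMIs or more in every lineage, 30.8% were lower in 8 or more. HSPB1 was not among these genes because of its few mast-like UMIs. The direction was not firm, since HSPB1 was lower in 4 lineages with all barcodes and in 6 with total UMIs. The KRT1 and KRT10 cluster had 844 and 770.2 plain CPM and the KRT15 cluster 634 and 689.

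The mitochondrial pair act as a complex but had different profiles over the lineages. HSPD1 was highest in fibroblast-like cells (208 and 218 CPM, fresh and cryopreserved) and myeloid-like cells (223 and 201), whose order turned under 6 of 12 alternatives, and lowest in endothelial-like cells (108 and 89.0). HSPE1 was highest in keratinocyte-like cells (242 and 305), or in myeloid-like cells with DESeq2 factors. In keratinocyte-like cells HSPD1 had 126 and 129 CPM. In fibroblast-like cells HSPE1 had 185 and 259.9, in SMC-like cells 192 and 242, and in myeloid-like cells 217 and 300.0 CPM. Endothelial-like cells had 106 and 107, lymphatic-like cells 94.9 and 95.6, dendritic-like cells 168 and 197, and T or NK-like cells 192 and 233 CPM of HSPE1. HSPE1 was thus low in both endothelial kinds. By the mean of both libraries it was lowest in the mast-like cells, at 66.7 and 118 CPM on 19 and 36 UMIs. In the cryopreserved library both endothelial kinds were below the mast-like cells. HSPD1 had 191 and 183 CPM in SMC-like, 159 and 130.5 in lymphatic-like, 146 and 190.0 in T or NK-like and 119 and 112 in mast-like cells. Over the whole library HSPE1 was higher after cryopreservation by 0.47 (0.43 to 0.52) and HSPD1 by 0.07 (0.01 to 0.12), although the genes share the region between their starts. HSPE1 was higher in 9 of 9 lineages, as were 24.0% of genes measured in all 9, with none past the fold and intervals above 0 in 5. It had under 200 UMIs in 2 of the 9, so it was not among those genes. The difference was only 0.005 in endothelial-like and 0.011 in lymphatic-like cells. HSPE1 was higher in 7 lineages with all barcodes, where T or NK-like cells were at -0.09 and lymphatic-like cells at -0.07. It was higher in 8 with DESeq2 factors, means over cells or no mitochondrial limit. The same held without the most doublet-like cells or without the 5 top cells. HSPD1 was past the fold in dendritic-like cells, at 110.0 and 167 CPM on 145 and 264 UMIs (0.60, 0.30 to 0.90). This fell short of the fold with means over cells (0.51) and with no mitochondrial limit (0.53). One fresh cell held 16.6% of the fresh HSPD1 UMIs there and 1 cryopreserved cell 11.4%.

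**Figure D2:**
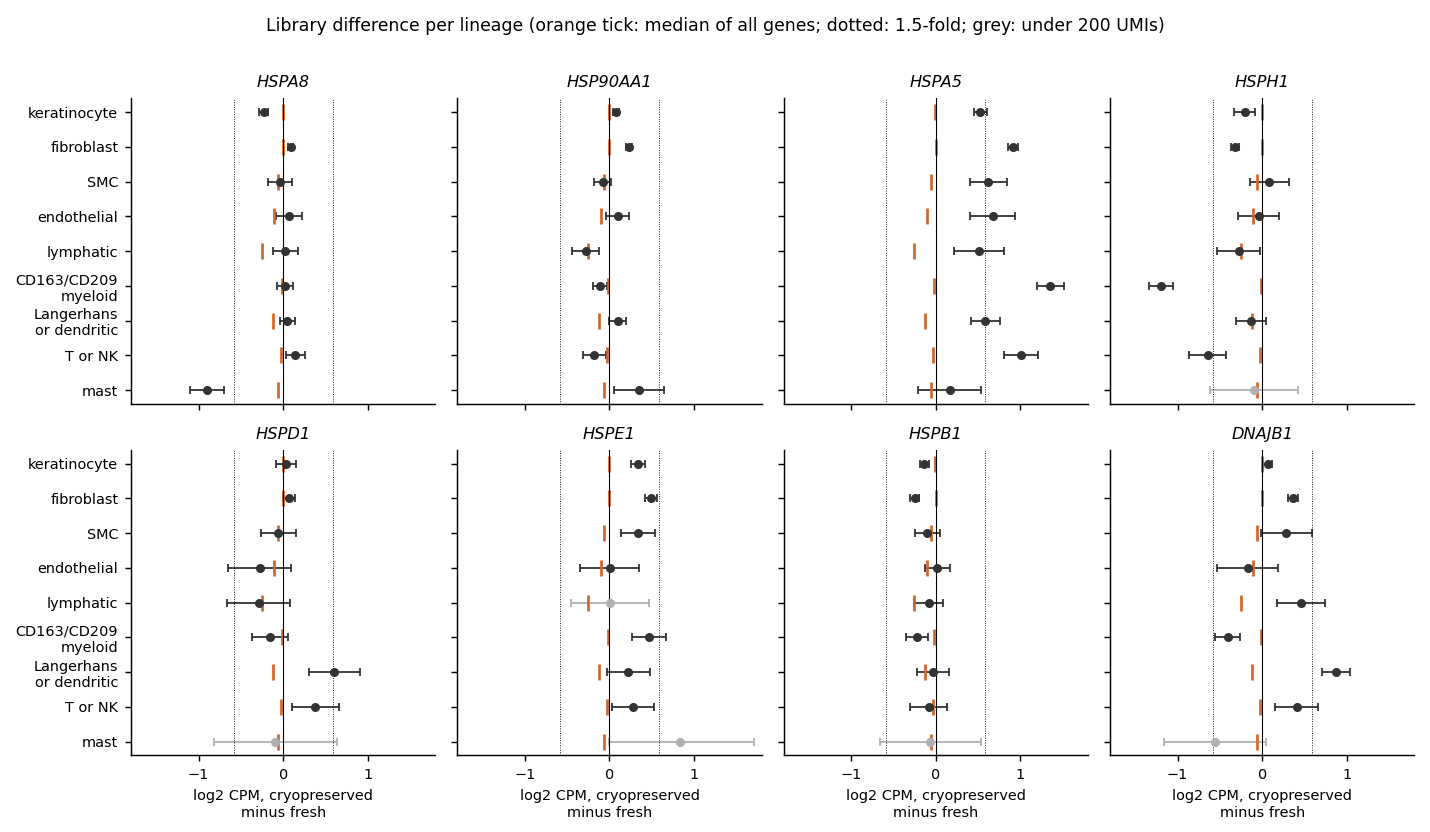
Difference between the libraries on the log2 scale (horizontal axis, cryopreserved minus fresh) for each gene and lineage, with 95% intervals for counting error, dotted lines at 1.5-fold, an orange tick at the median of all genes measured in that lineage and grey points for under 200 UMIs. Of 66 points with enough UMIs, 8 lie past the fold on the higher side, 6 of them HSPA5, and 3 on the lower side.

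Of the 72 pairs of a gene and a lineage, 66 had 200 UMIs or more, and 11 of these were past the fold, 8 higher and 3 lower. The counts are read against the share of all measured genes past the fold in the same lineage. Keratinocyte-like cells had 0 of 8 chaperones (5.21% of all genes), fibroblast-like cells 1 of 8 (8.67%), SMC-like cells 1 of 8 (5.17%), endothelial-like cells 1 of 8 (7.97%) and lymphatic-like cells 0 of 7 (19.1%). Myeloid-like cells had 2 of 8 (14.8%), dendritic-like cells 3 of 8 (13.7%), T or NK-like cells 2 of 8 (10.5%) and mast-like cells 1 of 3 (15.8%). By direction, all 3 in dendritic-like cells were higher, where 3.79% of genes were past the fold higher and 9.94% lower. Myeloid-like and T or NK-like cells had HSPA5 higher (8.59% and 7.43% of genes) and HSPH1 lower (6.19% and 3.07%). HSPA5 was the 1 higher in fibroblast-like (4.74%), SMC-like (3.18%) and endothelial-like cells (3.38%). HSPA8 was the 1 lower in mast-like cells (10.5%). Over the whole library HSPA5 was the 1 chaperone of 8 past the fold, where 8.31% of 11692 genes were, 5.29% higher and 3.02% lower. With 8 genes, 1 past the fold is near most of the shares in either direction. The 2 or 3 in myeloid-like, dendritic-like and T or NK-like cells were above theirs, which was not tested. The count of chaperones is thus no result in itself. HSPA5 was among them in 6 of the 7 lineages with any. In lymphatic-like cells the median of all genes was -0.25, so values there sit on a shifted base.

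Gene length moved with the library difference. Gene span, the distance from first to last base including introns, was found in RefSeq by symbol for 9636 of the 11692 genes (82.4%). Genes up to 5000 bases had a median difference of 0.34 on the log2 scale, and the medians were 0.30 up to 10000 bases, 0.21 up to 20000, 0.05 up to 50000, -0.10 up to 100000 and -0.23 beyond. The median of genes up to 5000 bases was above that of genes over 100000 bases in 9 of 9 lineages. HSPA5 spans 4916 bases, and its 0.85 lay above the upper quartile of its span class, 0.49. Any gene past the fold higher in this class does so, and 14.3% of the 741 genes in the class were past the fold higher. HSPE1 (2128 bases), DNAJB1 (2811), HSP90AA1 (4478) and HSPD1 (13144) lay within the quartiles of their classes. The HSP90AA1 span may be too short, since its record begins at the letters ATG. HSPB1 (1368 bases), HSPA8 (4483) and HSPH1 (25655) lay below theirs, by 0.43, 0.33 and 0.46 from the class medians. In single lineages HSPA5 exceeded the median of genes up to 5000 bases by 0.26 to 0.95 in 8 lineages, and was 0.03 below it in mast-like cells. The part of gene span in the remaining differences was not tested.

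**Figure D3:**
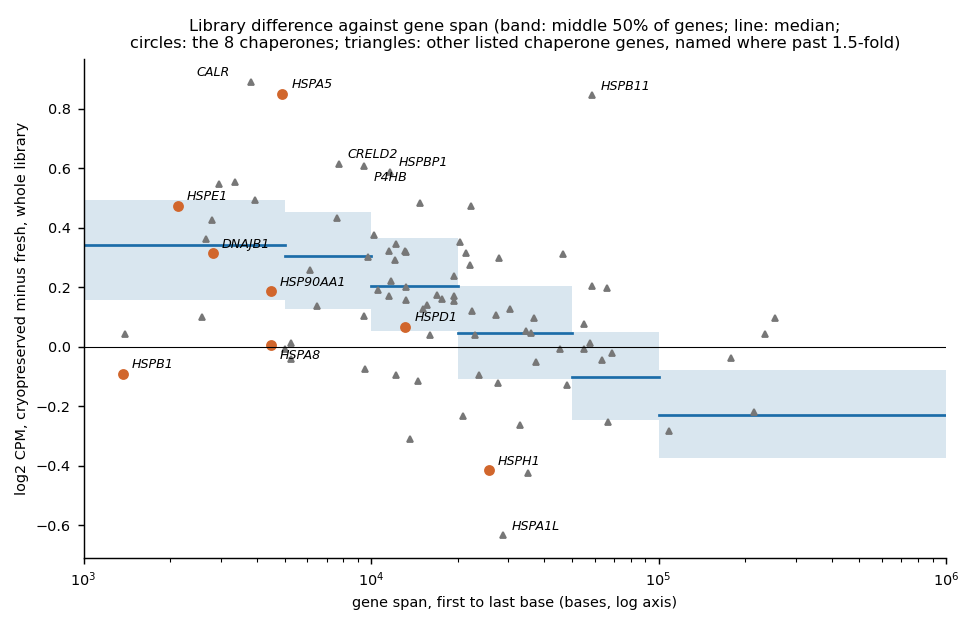
Difference between the libraries over the whole library (vertical axis, log2 scale, cryopreserved minus fresh) against gene span in bases (horizontal log axis), with blue lines for the median and bands from the lower to the upper quartile of all genes in each span class. Circles are the 8 chaperones and triangles 79 other chaperone genes. HSPA5 lies above its band at 0.85, as does any gene of its span class past the fold higher, and HSPH1 below its band at -0.41.

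The other chaperone genes were taken from 6 lists. Of 102 listed genes 88 were found by symbol, 80 had 200 UMIs or more, and 58 of these 80 were higher in the cryopreserved library, with 6 past the fold higher and 1 lower. Over all 11692 genes 5.29% were past the fold higher and 3.02% lower, so the count over the lists is near the background. The median over the 80 genes was 0.14 on the log2 scale, against 0.03 over all 11692 genes. Set against genes of like span, the 79 with a known span had a median distance of 0.02 from their class medians. Of these, 40 lay within the quartiles of their span class, 21 above and 18 below. The share of all genes higher by any amount was not counted. The numbers of list genes that were higher, here and below, thus have no background and are no result in themselves. The inducible HSP70 genes HSPA1A and HSPA1B and the J-domain partner DNAJA1 were not matched by symbol and are not analysed here, and HSPA6 had 0 UMIs in both libraries.

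Of 22 ER genes tested, 3 were past the fold higher, where 5.29% of all genes were, and 0 lower, with 17 higher and a median of 0.15. Calreticulin (CALR), which holds glycoproteins in the ER until folded, went from 223 to 414 CPM, a difference of 0.89 (0.85 to 0.93), close to that of HSPA5. CALR was past the fold in 7 of 8 lineages measured. P4HB, a protein disulfide isomerase and subunit of collagen prolyl hydroxylase, went from 162 to 247 CPM (0.61, 0.56 to 0.66) and was past the fold in 5 of 8. CRELD2, a secreted ER stress product, went from 11.2 to 17.1 CPM (0.62, 0.43 to 0.81). The 3 ER genes with most UMIs were ATF4, the translation-controlled stress factor, at 0.43, SERPINH1, the collagen chaperone HSP47, at 0.17, and PPIB, a prolyl isomerase, at 0.14. HSP90B1, the ER HSP90 also known as GRP94, was at 223 and 248 CPM, a difference of 0.15 (0.11 to 0.20), and XBP1, a factor of the unfolded protein response, at -0.04. Both were named after their values were seen. CALR (3812 bases), P4HB (9476) and CRELD2 (7725) each lay above the upper quartile of their span class, 0.49 for CALR and 0.45 for the others. Any gene past the fold higher in these classes does so, and this adds nothing to their being past the fold. Of all genes, 14.3% of those up to 5000 bases and 11.6% of those from 5000 to 10000 were past the fold higher. With all barcodes or with total UMIs, 1 ER gene rather than 3 was past the fold, no more than in the small heat shock protein and regulator lists.

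The cytosolic list had 26 genes tested and 17 higher, with a median of 0.12. HSPBP1, which removes nucleotide from HSP70, was past the fold higher at 0.59 (0.36 to 0.81), and HSPA1L, an HSP70 on 140 and 100 UMIs, lower at -0.63 (-1.02 to -0.25). The 3 with most UMIs lay near 0: HSP90AB1, the constitutive HSP90, at 0.16, BAG3, an HSP70 co-chaperone of stress-linked autophagy, at -0.09, and DNAJB4 at -0.05. In the TRiC and prefoldin list, which folds actin and tubulin, 11 of 11 genes were higher and 0 past the fold, with a median of 0.20. Its most abundant genes were PFDN2 at 0.49, CCT5 at 0.22 and TCP1 at 0.19. CCT5 and TCP1 lay within the quartiles of their span class, whose median was 0.21, and PFDN2 lay above them.

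The mitochondrial list had 8 of 10 genes higher, 0 past the fold and a median of 0.19. HSPA9, the HSP70 of the matrix, was at 0.17, PHB at 0.32 and CLPX at -0.13. In the small heat shock protein list, 2 of 4 genes were higher. HSPB11, which was listed for its symbol only, was past the fold at 0.85 on 97 and 193 UMIs. CRYAB was at -0.01, HSPB6 at 0.10 and HSPB8 at -0.31. Of the regulators, 3 of 7 were higher, with HSF4 past the fold at 0.91 on 117 and 243 UMIs. HSF1, the heat shock factor itself, was at 0.04 on 1464 and 1666 UMIs and was named after its value was seen. NFE2L2, the factor of the oxidative response, was at -0.04, HSBP1 at 0.55 and SIRT1 at -0.42.

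**Figure D4:**
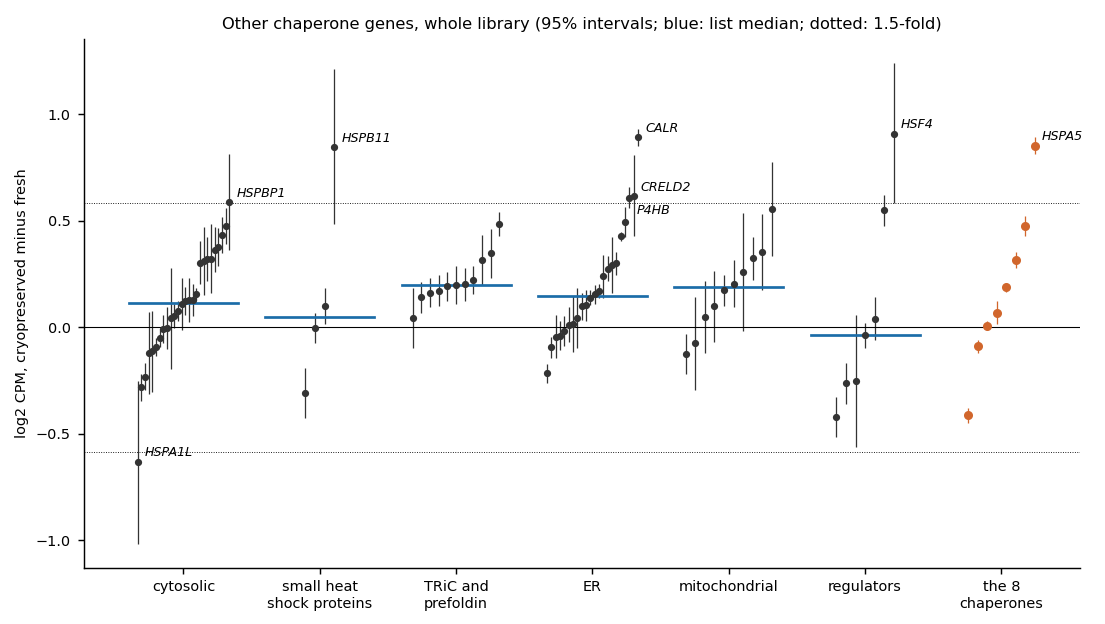
Difference between the libraries over the whole library (vertical axis, log2 scale, cryopreserved minus fresh) for 80 other chaperone genes by list, with 95% intervals for counting error, blue lines at list medians, dotted lines at 1.5-fold and the 8 chaperones in orange. Of the 7 named genes past the fold in the lists, 3 (CALR, CRELD2 and P4HB) are ER genes.

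Log2 levels over the 9 lineages were alike in the libraries, with Pearson r from 0.75 for HSPD1 to 0.99 for HSPB1. The order of lineages was less alike for HSPA5, with a Spearman rho of 0.53. The other genes had a rho from 0.75 for HSP90AA1 to 0.98 for HSPB1. These are descriptions over 9 points that share depth and cell numbers. The position of the top lineage, taken by the mean of both libraries, was less firm. HSPA8 in fibroblast-like cells lay 1.15-fold above the next lineage, and without TMM factors mast-like cells ranked first for HSPA8 and HSPA5, lymphatic-like cells for HSPB1 and myeloid-like cells for HSPD1. HSP90AA1 in myeloid-like and DNAJB1 in keratinocyte-like cells ranked first under all 12 alternatives tried. For HSPA5 all 8 neighbours in the order overlapped, counting the fresh and cryopreserved levels as the range of a lineage.

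The chaperones did not share 1 profile over the lineages. DNAJB1 was most like HSP90AA1 (Pearson r 0.77 fresh and 0.74 cryopreserved) and HSPA5 most like HSPA8 (0.81 and 0.68), while HSPB1 ran against HSPA8 (-0.52 and -0.36). Outside the 8 genes, among 7584 genes with 1000 UMIs or more, those most like HSPA5 by the lower of the 2 values of r were COX6A1 (0.90 and 0.91, fresh and cryopreserved), TAF10 (0.91 and 0.90) and CAPG (0.91 and 0.89). Those most like HSPA8 were FDX1 (0.93 and 0.91), SSR2 (0.89 and 0.91) and GAS7 (0.88 and 0.89). Those most like HSP90AA1 were CEBPA (0.92 and 0.98), SHTN1 (0.91 and 0.93) and PLXNA1 (0.96 and 0.91). For HSPB1 they were PLEKHG5 (0.93 and 0.93), NR6A1 (0.92 and 0.91) and EXOC6B (0.91 and 0.92), and for HSPE1 IGSF8 (0.92 and 0.91), NIFK (0.93 and 0.89) and VIRMA (0.86 and 0.88). HSPD1 had ZNF618 (0.79 and 0.79), LSAMP (0.79 and 0.79) and WSB1 (0.85 and 0.75). HSPH1 had APBA1 (0.87 and 0.94) and DNAJB1 had PRDX5 (0.88 and 0.87) and COX7C (0.85 and 0.84), the rest being genes with no symbol.

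From cell to cell within a lineage, thinned to 2000 UMIs per cell, HSPH1 and DNAJB1 varied together in myeloid-like cells, with a Spearman rho of 0.40 over 146 fresh and 0.42 over 260 cryopreserved cells. Dendritic-like cells had 0.42 and 0.37, fibroblast-like cells 0.26 and 0.17 and keratinocyte-like cells 0.09 and 0.04. HSP90AA1 and HSPH1 had 0.33 and 0.44 in myeloid-like cells, and HSPH1 and HSPD1 had 0.42 and 0.27. HSPA5 and DNAJB1 had 0.04 and -0.08 there. These values share library and depth, and weak ones are no finding. Myeloid-like cells also pool the CD209 and MARCO clusters, which differed in both HSPH1 and DNAJB1. In the cryopreserved library these had 337 and 96.8 plain CPM of HSPH1 and 365 and 134 of DNAJB1. The part of the clusters in the correlations was not tested.

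**Figure D5:**
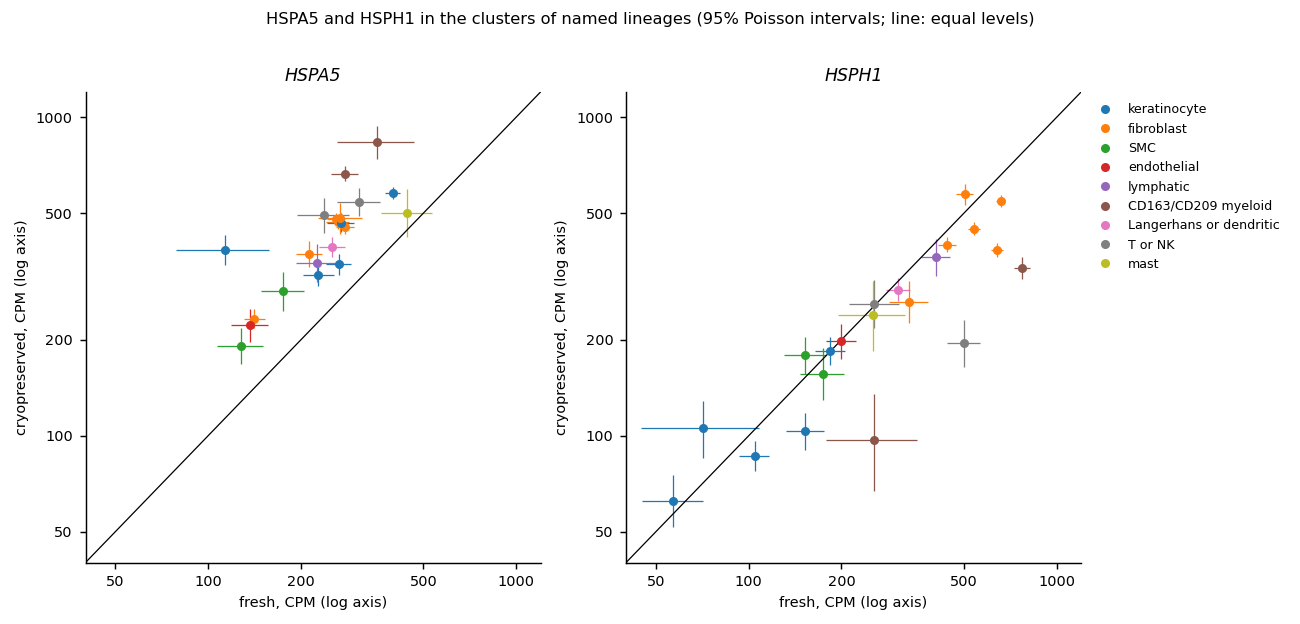
HSPA5 and HSPH1 in the 21 named clusters with at least 10 cells in each library, coloured by lineage, with 95% Poisson intervals and a line of equal levels. The axes are plain CPM without TMM factors, cryopreserved (vertical log axis) against fresh (horizontal log axis). For HSPA5 all 21 clusters lie above the line, and for HSPH1 15 lie below it. The shares of all genes that do so were not counted.

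The median share of mitochondrial UMIs per cell was 2.76% fresh and 2.26% cryopreserved in fibroblast-like, 4.54% and 4.91% in keratinocyte-like and 3.27% and 2.28% in myeloid-like cells. Its part in the HSPA5 and HSPH1 differences was not tested. HSPA8, HSP90AA1, HSPD1 and HSPE1 are known in mammals to have near-identical processed copies, which can take or drop reads, so their levels carry an uncertainty that was not tested.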

How the data were processed

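Single cells of fresh and cryopreserved pig dorsal skin were sequenced with a droplet 3′ kit, 1 library each. The deposited matrices hold counts of UMIs per gene and barcode, made by the authors with Cell Ranger 4.0.0 and STAR 2.5.1b on Sscrofa11.1, per the submitters' processing notes. Cells over 4500 genes, 30000 UMIs or 10% mitochondrial UMIs were left out. The libraries were integrated with Seurat 5.3.0 anchors (R 4.3.3, 2000 features, 30 dimensions, resolution 0.8, 96 chaperone genes left out of the features). A cluster was named from a marker list with at least 3 genes in 10% of cells and 2-fold over the rest. That scoring, and the joining of basal and differentiated keratinocytes, were set after the clusters were seen. Scrublet called 8 barcodes per library and was not used to remove cells. UMIs were summed per lineage and library and scaled with edgeR 4.0.16 TMM factors. Counting intervals used scipy 1.17.1. No test between conditions was made. The chaperones and gene lists were chosen with earlier results of these data known. Genes named were the 8 chaperones, list genes past 1.5-fold, the 3 of each list with most UMIs, and the 3 genes most like each chaperone, except where stated. Alternatives covered scaling (DESeq2 1.42.0 included), cell filters, clustering, doublets, top cells and thresholds.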

Additional observations from a re-analysis of the deposited data

Results flagged for a closer look

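Barcodes over the 10% mitochondrial limit, which were left out of the main comparisons and entered only the alternatives without that limit, numbered 1004 of the fresh and 446 of the cryopreserved barcodes. Their levels were compared with those of barcodes at or under the limit, as CPM of the non-mitochondrial UMIs. The latter numbered 3375 fresh and 4414 cryopreserved barcodes. They include barcodes over the gene and UMI maxima, so they are not the cells of the main comparisons. Depth differed widely, with a median of 1311.5 UMIs over and 13074 under the limit in the fresh library. In the cryopreserved library the medians were 1374.5 and 8214.5. HSPH1 was 810 CPM over and 357 under the limit in the fresh library, a ratio of 2.27, and 533 and 294 in the cryopreserved library, a ratio of 1.82. DNAJB1 was 559 and 328 CPM in the fresh library, a ratio of 1.70, while its ratio in the cryopreserved library was 1.01. HSPB1 was 903 and 442 CPM in the cryopreserved library, a ratio of 2.04, while its ratio in the fresh library was 1.04. HSPA8 was lower over the limit in both libraries, with ratios of 0.65 fresh and 0.59 cryopreserved. These are 1 library each, with lineages mixed, and the differences were not tested.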

How the results depend on the processing

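HSPA5 was higher in 9 of 9 lineages under every alternative run, and its difference over the whole library ran from 0.73 to 0.87 on the log2 scale. The HSPH1 difference over the whole library ran from -0.45 to -0.30. No direction of a difference past the fold reversed. Relative to 8 chaperones, the highest lineage was the same for 4 with total UMIs, 4 with DESeq2 factors, 3 with means over cells and 4 with TMM within each lineage, an alternative chosen after seeing the data. The lowest was the same for 5 with total UMIs and 5 with TMM within each lineage. HSPH1 was lower in 5 lineages rather than 8 with all barcodes, in 6 with means over cells or without the 5 top cells, and in 7 with no mitochondrial limit. The 11 pairs of gene and lineage past the fold became 5 at a minimum of 1000 UMIs, 23 at a lower fold limit and 3 at 2-fold. The cytosolic list had 2 genes past the fold, against 1 with total UMIs, 0 with all barcodes, 1 with no mitochondrial limit and 1 with means over cells. The ER list had 3, against 1 with total UMIs and 1 with all barcodes. The mitochondrial list had 0, against 1 with all barcodes, and the small heat shock protein list 1, against 0 with means over cells. Of the remaining values, 84 moved (a difference out of its counting interval, a list median by 0.1 or more, or a span between lineages by over 1.5 times) and 1052 did not. The cause of these changes was not tested. No paired analysis was possible because each condition has 1 library. For the same reason the difference between animals, days or captures and that between conditions cannot be told apart. Mast-like cells were few, and 5 of the 8 chaperones had under 200 UMIs there.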
